A study of Mus musculus with 22 samples.

Results

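The 10 circadian clock genes described here were Per1, Per2, Per3, Cry1, Cry2, Clock, Arntl, Nr1d1, Nr1d2 and Dbp. They were picked by symbol and not by a cutoff on any measured value, but with earlier results of these data known. All 10 named symbols were present among the 11208 genes of the deposited table. Polyadenylated RNA was sequenced from NIH/3T3, an established mouse fibroblast line, in 22 libraries that form 11 groups of 2. A derivative carried a doxycycline-inducible construct for E2F1, a transcription factor that drives genes of S phase entry (the E2F1 line), and another carried the empty vector (the EV line). Cells of every group, controls included, had been starved for 48 h in 0.25% serum. The groups were the E2F1 line at 0, 2, 6 and 12 h of 500 ng/ml doxycycline, the EV line given the same doxycycline for 0, 2, 6 and 12 h, and EV cells given 10% serum for 2, 6 and 12 h. The 0 h group of the EV line served both the serum and the doxycycline courses, so comparisons with it share those libraries, and no serum course of the E2F1 line was analysed here. The construct's promoter, whether each line is 1 clone, and whether the 2 replicates came from separate cultures are not given in the sources used here. P-values therefore measure only the spread between these libraries, which may be technical.

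In mammalian cells the clock is a transcriptional loop. CLOCK and its partner ARNTL (BMAL1) form the activator, which binds E-box sequences and switches on the Per and Cry genes. PER and CRY proteins accumulate, enter the nucleus and hold the activator back, while the nuclear receptors NR1D1 and NR1D2 (REV-ERB alpha and beta) repress Arntl through ROR elements. DBP is a transcription factor of the PAR bZIP family whose gene is driven by the same E-boxes and which in turn acts on D-box sequences, among them that of Per3. Fibroblasts in culture hold such clocks, and a change to fresh serum is a classical stimulus that sets them in step, with Per1 and Per2 known as its early responders.

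Promoter sequences are shown for 5 members because they carry the elements just named, or the E2F letters that bear on an E2F1 experiment. They were read from RefSeq for GRCm38.p6 as windows from 250 bases before to 50 bases after a transcription start, each 300 bases long. Of the 10 members, 9 had an entry, with 13 windows in all; Per2 had none. Sequences run 5′ to 3′ on the gene's strand, and capitals mark the matched letters. Per1 (window chr11:69098699-69098998, plus strand) holds the E-box CACGTG 166 bases before the start. Cry1 (chr10:85185005-85185304, minus strand) holds the E-box 60 bases before the start and, 79 bases before it, the variant E-box CACGTT on the other strand. Per3 (chr4:151044616-151044915, minus strand) holds the D-box TTATGTAA at 2 places, 205 and 158 bases before the start. Arntl (chr7:113207261-113207560, plus strand) holds the ROR element TAGGTCA 30 bases after the start, and Clock (chr5:76304499-76304798, minus strand) holds a short E2F core, TTCGCGC on the other strand, 146 bases before it. Clock had 3 windows, of which the others held no match to any motif searched, and of the 2 windows of Arntl the other held none. Dbp and Nr1d2 each had a single window, and neither held a match to any motif searched, the E-box included.
Per1: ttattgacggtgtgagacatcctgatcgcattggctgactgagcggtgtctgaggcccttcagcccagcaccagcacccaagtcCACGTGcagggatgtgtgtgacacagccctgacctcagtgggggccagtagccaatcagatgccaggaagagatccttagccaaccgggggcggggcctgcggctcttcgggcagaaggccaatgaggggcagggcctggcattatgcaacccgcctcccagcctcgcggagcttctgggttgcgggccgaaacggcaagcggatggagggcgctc
Cry1: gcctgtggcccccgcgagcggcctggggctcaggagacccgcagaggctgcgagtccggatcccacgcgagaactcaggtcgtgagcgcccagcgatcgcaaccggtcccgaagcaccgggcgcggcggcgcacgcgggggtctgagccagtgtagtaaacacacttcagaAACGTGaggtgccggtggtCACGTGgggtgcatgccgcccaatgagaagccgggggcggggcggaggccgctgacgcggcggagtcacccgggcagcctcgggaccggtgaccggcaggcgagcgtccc
Per3: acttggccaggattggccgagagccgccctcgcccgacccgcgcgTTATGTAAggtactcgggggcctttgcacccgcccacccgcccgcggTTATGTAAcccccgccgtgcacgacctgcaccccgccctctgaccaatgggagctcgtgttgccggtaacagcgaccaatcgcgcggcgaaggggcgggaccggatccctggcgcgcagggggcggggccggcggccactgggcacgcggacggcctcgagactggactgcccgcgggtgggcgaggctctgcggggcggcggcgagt
Arntl: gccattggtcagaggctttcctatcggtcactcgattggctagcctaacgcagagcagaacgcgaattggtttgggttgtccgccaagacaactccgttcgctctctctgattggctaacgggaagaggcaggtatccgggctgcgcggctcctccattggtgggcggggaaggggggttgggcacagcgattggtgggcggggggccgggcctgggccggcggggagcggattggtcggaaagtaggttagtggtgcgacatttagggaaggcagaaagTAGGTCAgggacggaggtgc
Clock: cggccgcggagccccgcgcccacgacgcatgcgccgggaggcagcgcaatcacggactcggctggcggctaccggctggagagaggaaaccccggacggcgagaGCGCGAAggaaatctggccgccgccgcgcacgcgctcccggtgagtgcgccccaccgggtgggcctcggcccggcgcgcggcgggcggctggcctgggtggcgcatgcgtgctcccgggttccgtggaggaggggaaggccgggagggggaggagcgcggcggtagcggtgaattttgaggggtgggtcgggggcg
Both strands were searched in 32851 promoter windows of the same length. The E-box was in 7.15% of them, the variant E-box in 4.68%, the D-box (TTATGTAA or TTACGTAA) in 1.06%, the ROR element (TAGGTCA or TGGGTCA) in 6.45% and the short E2F core (TTGGCGC or TTCCCGC or TTGCCGC or TTCGCGC) in 9.57%. Cry2 and Nr1d1 each held the variant E-box, 166 and 28 bases before the start. A second start of Per1 held TGACGT, the core of the cAMP response element, 132 bases before it, a sequence in 7.51% of windows, while the full element TGACGTCA (1.79% of windows, and overlapping its core) was in no member's window. The longer E2F motif (TTTGGCGC or TTTCCCGC or TTTGCCGC or TTTCGCGC, which overlaps the short core) was in 2.26% of windows and in none of the members'. A match is a description of letters and not evidence of a bound site.

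The values analysed were the authors' normalized counts, in whole numbers, with totals from 34014608 to 46057140 per library; these are scaled totals, not read depths, and the highest were in serum at 2 h. All 10 fibroblast markers examined were in the table, of the macrophage markers 1 of 5 (Csf1r, at 33 to 735), and of the adipocyte, endothelial, epithelial and skeletal muscle markers none. In the E2F1 line E2f1 itself measured 1703 and 1637 at 0 h, 1535 and 1755 at 2 h, 3806 and 3602 at 6 h and 2683 and 2845 at 12 h, so its deposited count was raised from 6 h on and not at 2 h. Some libraries stood apart in Ddx3y, a Y-linked gene that separated the lines. It measured from 316 to 580 in the E2F1 line and from 4 to 31 in the EV line at 0, 6 and 12 h of doxycycline, but 103 and 71 in the EV line at 2 h of doxycycline and 132 and 170 at 2 h of serum. At 6 h of serum it measured 48 and 35 and at 12 h 29 and 19, and all 3 serum times were called above EV 0 h (log2 4.41, 2.57 and 1.79). Whether these EV libraries hold some RNA of the E2F1 line was not tested, nor was the part of Ddx3y in the clock gene results. At rest 1 of 10 clock genes, Per2, passed the threshold between the lines at 0 h, where 15% of all genes did. Of 6 E2F target genes, 5 were called higher in the E2F1 line at 0 h (list median log2 0.74), and 2 rose further at 2 h of doxycycline in that line.

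Serum moved the clock genes within 2 h and in both directions. Relative to starved EV cells, Per1, Per2, Cry1, Clock, Arntl and Nr1d1 were higher at 2 h, by 0.59 to 2.23 on the log2 scale, while Per3, Nr1d2 and Dbp were lower, with Dbp at -4.34. The change (here and below on the scale of log2(value + 1), which understates the fold of low genes such as Dbp) passed an adjusted p of 0.05 in limma for 9 of 10 members at 2 h, where 70.9% of all genes passed: 6 members were higher (37.5% of all genes) and 3 lower (33.5%). At 6 h 9 of 10 passed (67.5% of all genes), 3 higher (36.5%) and 6 lower (31%). At 12 h 8 of 10 passed (65.7%), 1 higher (36%) and 7 lower (29.7%). The totals called in either direction stand near those of all genes. By direction, the lower members at 6 and 12 h (6 and 7 of 10) stood above the shares of all genes (31% and 29.7%), a difference that was not tested. The median absolute log2 change was 1.5 for the members against 0.59 for all genes at 2 h, 0.97 against 0.51 at 6 h, and 0.67 against 0.48 at 12 h. In bulk RNA, fewer cells that express a gene and less RNA per cell cannot be told apart.

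**Figure D1:**
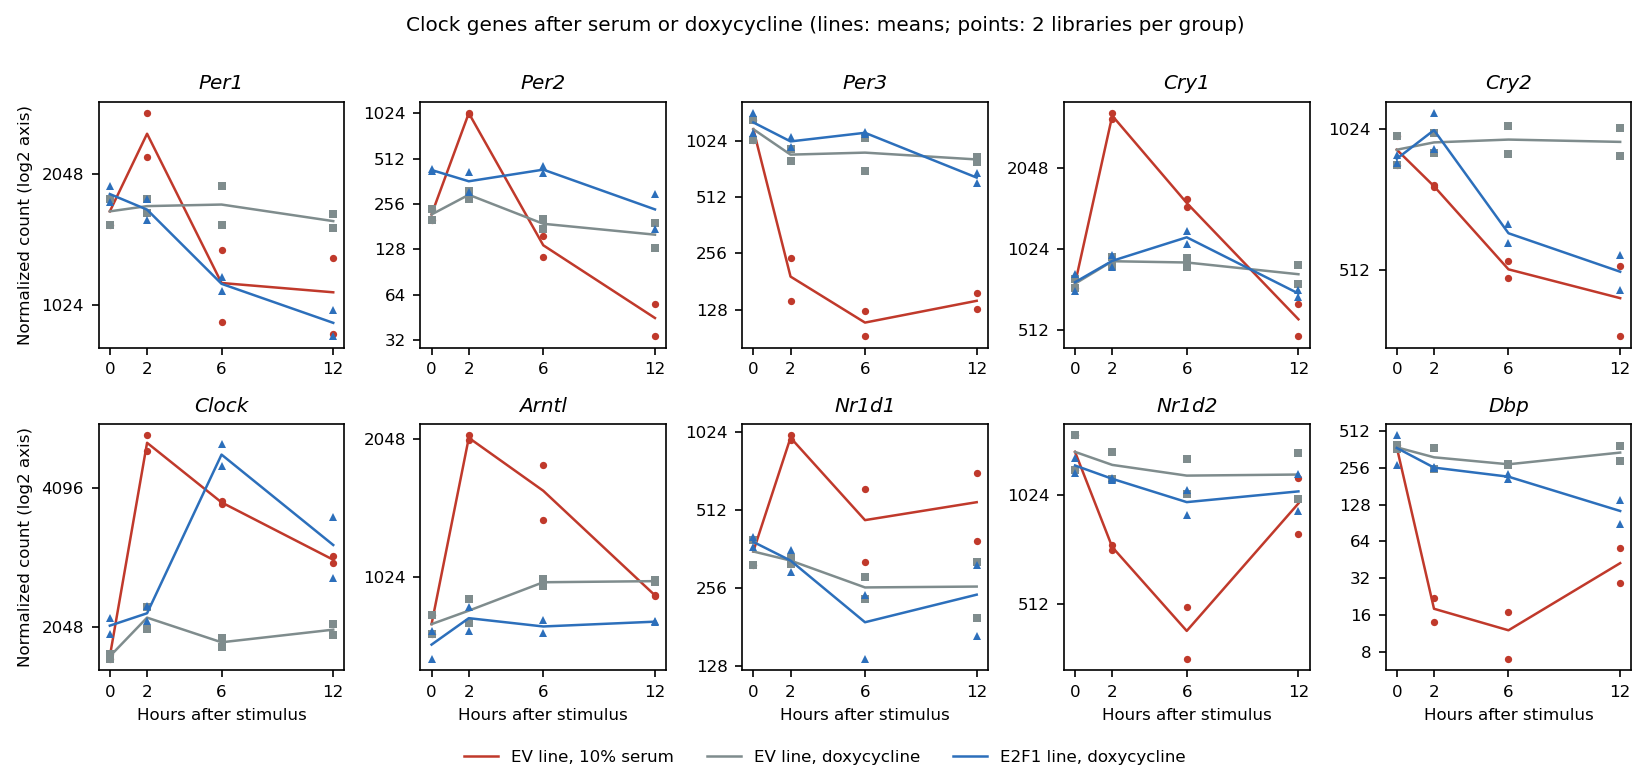
Normalized count (log2 axis) of the 10 clock genes against hours after the stimulus, with 2 points per group (circles for serum, squares for EV doxycycline, triangles for E2F1 doxycycline) and lines through the group means. Serum peaks at 2 h are visible for Per1, Per2, Cry1, Clock, Arntl and Nr1d1, Dbp and Per3 lie far below rest at all serum times, and Clock in the E2F1 line peaks at 6 h with 5088 and 4564.

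The activator genes Clock and Arntl rose first and then declined. Clock (chr5:76209868-76304792, minus strand, GRCm38 as for all gene positions here) measured 1796 and 1751 normalized counts in EV cells at 0 h, 5311 and 4924 at 2 h of serum, 3836 and 3779 at 6 h, and 2817 and 2911 at 12 h. Both libraries of each serum time lay above both resting libraries. The log2 change was 1.53 ± 0.11 (SE, adjusted p = 5.45e-10) at 2 h, 1.10 ± 0.11 (6.43e-08) at 6 h and 0.69 ± 0.11 (2.23e-05) at 12 h. Arntl (chr7:113207465-113314126, plus strand) measured 770 and 849 at rest, 2085 and 2033 at 2 h, 1363 and 1795 at 6 h, and 934 and 936 at 12 h. Its serum libraries all exceeded the resting ones, and the rise passed the test at 2 h (log2 1.35 ± 0.12, adjusted p = 1.09e-08) and 6 h (0.95 ± 0.12, 1.40e-06). At 12 h the Arntl difference was 0.21, with a 95% interval from -0.04 to 0.46 (adjusted p = 0.13).

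The 3 Period genes, which encode the PER repressors, took separate courses. Per2 (chr1:91415982-91459324, minus strand) measured 200 and 237 at rest, 1031 and 1019 at 2 h, 158 and 115 at 6 h, and 56 and 34 at 12 h. It was thus highest of all groups at 2 h and lowest of all groups at 12 h, and its 12 h libraries lay below every other library of the series. The log2 change was 2.23 ± 0.27 (adjusted p = 6.78e-07) at 2 h and -2.29 ± 0.27 (7.98e-07) at 12 h. At 6 h it was -0.69 ± 0.27 (adjusted p = 0.0318), and this call did not survive quantile normalization (0.391), a fit to the compared groups alone (0.0661), or leaving out EV 0 h replicate 2 (0.153) or serum 6 h replicate 2 (0.228); its range over all alternatives was 0.00752 to 0.391.

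Per1 (chr11:69095217-69109960, plus strand) measured 1800 and 1567 at rest, 2243 and 2841 at 2 h, 934 and 1368 at 6 h, and 877 and 1314 at 12 h. The 2 h libraries were above and the later ones below both resting libraries. The 2 h rise of 0.59 ± 0.18 (adjusted p = 0.0074) was lost without serum 2 h replicate 2 (0.103) or EV 0 h replicate 2 (0.0622), under quantile normalization (0.0914) and under scaling to equal totals (0.278), with a range over all alternatives from 0.00562 to 0.278. The fall of Per1 was -0.57 ± 0.18 at 6 h (adjusted p = 0.0097) and -0.65 ± 0.18 at 12 h (0.00449). The first was lost without EV 0 h replicate 1 (0.0766) or serum 6 h replicate 1 (0.195), with a range over all alternatives from 7.02e-04 to 0.195, and the second without serum 12 h replicate 1 (0.126), with a range from 5.05e-04 to 0.126.

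Per3 (chr4:151003652-151044665, minus strand), whose window with 2 D-boxes is shown above, fell at the first time point and stayed low. It measured 1319 and 1036 at rest, 142 and 242 at 2 h, 126 and 92 at 6 h, and 156 and 129 at 12 h. All 6 serum libraries lay far under the lower resting library. Per3 changed by -2.65 ± 0.23 (adjusted p = 8.29e-09) at 2 h, -3.43 ± 0.23 (4.73e-10) at 6 h and -3.03 ± 0.23 (3.52e-09) at 12 h. Camta1, which overlaps Per3 on the same strand, changed by 0.30, -0.10 and -0.00 at these times.

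The Cryptochrome genes encode the other repressors of the loop. Cry1 (chr10:85131700-85185064, minus strand) measured 791 and 733 at rest, 3301 and 3135 at 2 h, 1469 and 1577 at 6 h, and 638 and 485 at 12 h. It rose above the resting pair at 2 and 6 h and was below it at 12 h. Cry1 changed by 2.08 ± 0.13 (adjusted p = 9.06e-11), 1.00 ± 0.13 (1.91e-06) and -0.45 ± 0.13 (0.00499) in that order, the last being lost without serum 12 h replicate 2 (0.125; range over all alternatives 8.06e-04 to 0.157). Cry2 (chr2:92403646-92434043, minus strand) measured 992 and 860 at rest, 777 and 770 at 2 h, 535 and 492 at 6 h, and 522 and 369 at 12 h. No rise of Cry2 preceded its fall: the 2 h difference was -0.26, with a 95% interval from -0.57 to 0.06 (adjusted p = 0.14; called at -0.63 under equal totals, 0.00132), followed by -0.85 ± 0.15 (8.14e-05) at 6 h and -1.07 ± 0.15 (6.99e-06) at 12 h.

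The REV-ERB genes moved in opposite directions at 2 h. Nr1d1 (chr11:98767932-98775333, minus strand) measured 393 and 315 at rest, 954 and 996 at 2 h, 615 and 321 at 6 h, and 709 and 389 at 12 h. The 2 h pair was above rest, while the 6 and 12 h pairs overlapped it and their replicates were far apart. The log2 change was 1.47 ± 0.35 (adjusted p = 0.00109) at 2 h, 0.34 with a 95% interval from -0.40 to 1.07 (0.408) at 6 h, and 0.58 from -0.16 to 1.31 (0.155, and 0.0402 without serum 12 h replicate 2) at 12 h. Thra, which overlaps Nr1d1 on the opposite strand, changed by -0.71, -1.02 and -1.17 at these times, and since the use of strand in the counting is not given here, reads of the pair cannot be told apart. Nr1d2 (chr14:18204054-18239127, minus strand) measured 1501 and 1200 at rest, 748 and 724 at 2 h, 502 and 361 at 6 h, and 1143 and 802 at 12 h. It was lower at every serum time, at -0.87 ± 0.19 (adjusted p = 5.90e-04), -1.65 ± 0.19 (5.68e-07) and -0.49 ± 0.19 (0.0341). The last of these did not pass in a fit to the compared groups (0.0613), without EV 0 h replicate 1 (0.243) or without serum 12 h replicate 2 (0.375), with a range over all alternatives from 0.0076 to 0.375.

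Dbp (chr7:45705088-45710203, plus strand), the output factor of the loop, fell the most. It measured 390 and 363 at rest, 14 and 22 at 2 h, 7 and 17 at 6 h, and 29 and 56 at 12 h. All 6 serum libraries lay far under both resting ones. Dbp changed by -4.34 ± 0.39 (adjusted p = 1.29e-08), -4.97 ± 0.39 (3.44e-09) and -3.19 ± 0.39 (1.23e-06). Sphk2, which overlaps Dbp on the opposite strand, changed by -0.34, 0.11 and -0.19, so the fall of Dbp had no counterpart of like size there. In a test against a change of at least 1.2-fold, the calls of Per1 at 2 h, of Per1 and Per2 at 6 h, and of Per1, Cry1 and Nr1d2 at 12 h did not pass; those of Per3, Dbp, Clock and the early Cry1 and Arntl rises did.

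**Figure D2:**
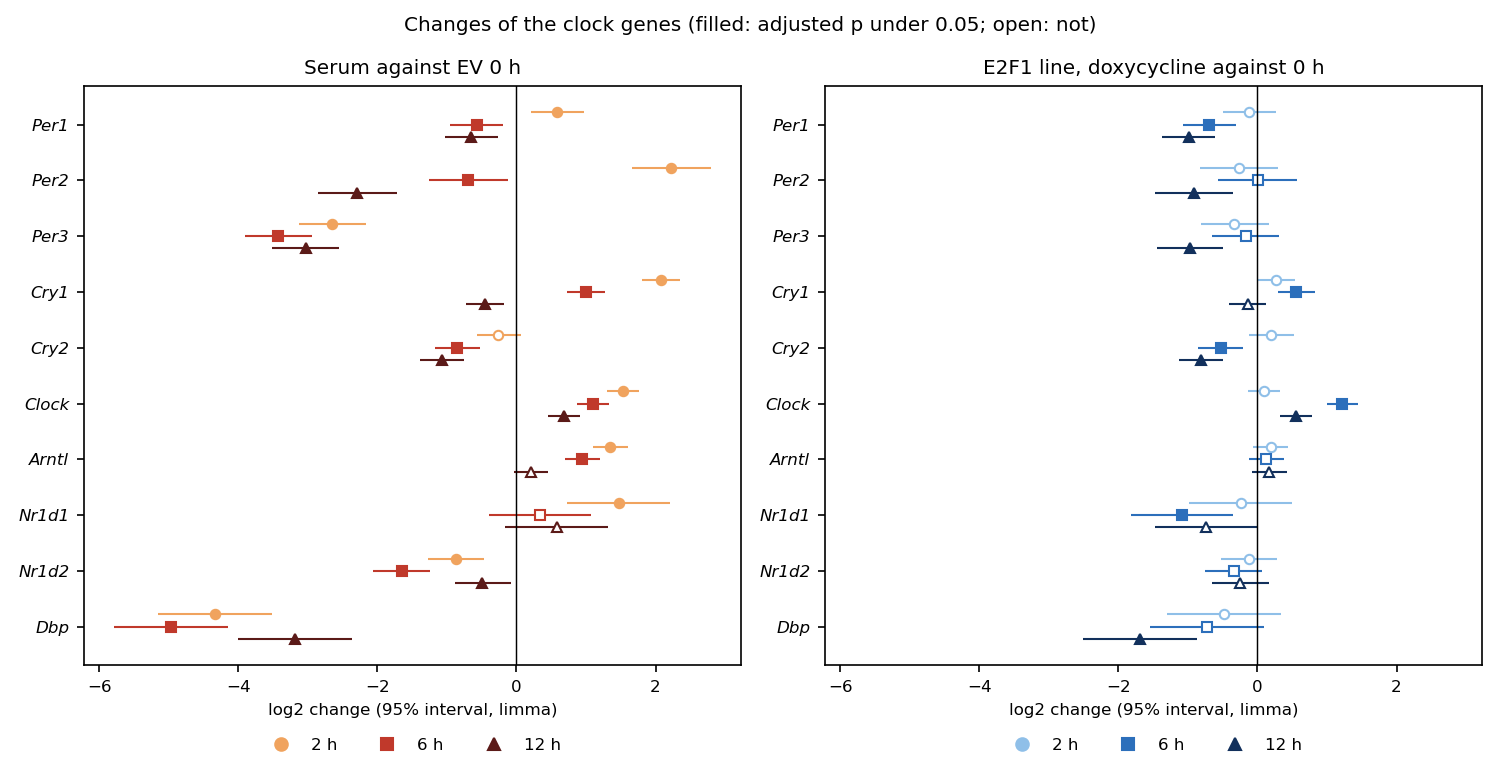
Log2 change (points, with 95% intervals from limma) of each clock gene at 2, 6 and 12 h of serum against EV 0 h (left) and of doxycycline in the E2F1 line against its own 0 h (right); filled symbols passed an adjusted p of 0.05. Serum changes run from -4.97 for Dbp to 2.23 for Per2, while in the E2F1 line no member passed at 2 h and Clock at 6 h stands farthest above 0 at 1.22.

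Against the EV line at the same hour of doxycycline, where the starved state continued, every called clock gene differed in the direction it had against 0 h. There 9 of 10 members passed at 2 h (67.1% of all genes), 8 of 10 at 6 h (65.8%) and 8 of 10 at 12 h (70.4%). At 2 h, where both groups carried the raised Ddx3y, the log2 difference was 1.80 for Per2, 1.80 for Cry1, 1.25 for Clock, 1.25 for Arntl, 1.58 for Nr1d1, -2.21 for Per3 and -4.05 for Dbp. Per2 was not called at 6 h in this comparison (-0.48, 95% interval -1.05 to 0.08, adjusted p = 0.123, and 0.034 under equal totals). Nr1d2 was not called at 12 h (-0.27, 95% interval -0.68 to 0.13, limma adjusted p = 0.216), and its libraries overlapped there. Nr1d1 was called at 12 h (1.06 ± 0.35, adjusted p = 0.0119), but not without EV doxycycline 12 h replicate 2 (0.151) or serum 12 h replicate 1 (0.186), with a range over all alternatives from 0.00211 to 0.186. Replicate 1 of Nr1d1 was the higher library in both groups at 12 h, at 709 against 389 in serum and 323 against 195 in doxycycline. The call of Nr1d1 was kept with the replicate number as a block. The Per1 differences were 0.54, -0.62 and -0.57. Each lost its call without 1 of 2 libraries, replicate 2 of either group at 2 h (highest adjusted p 0.148) and replicate 1 of either group at 6 h (0.135) and 12 h (0.213), and in the test against 1.2-fold; at 2 h it was also lost under quantile normalization (0.104) and equal totals (0.444).

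**Figure D3:**
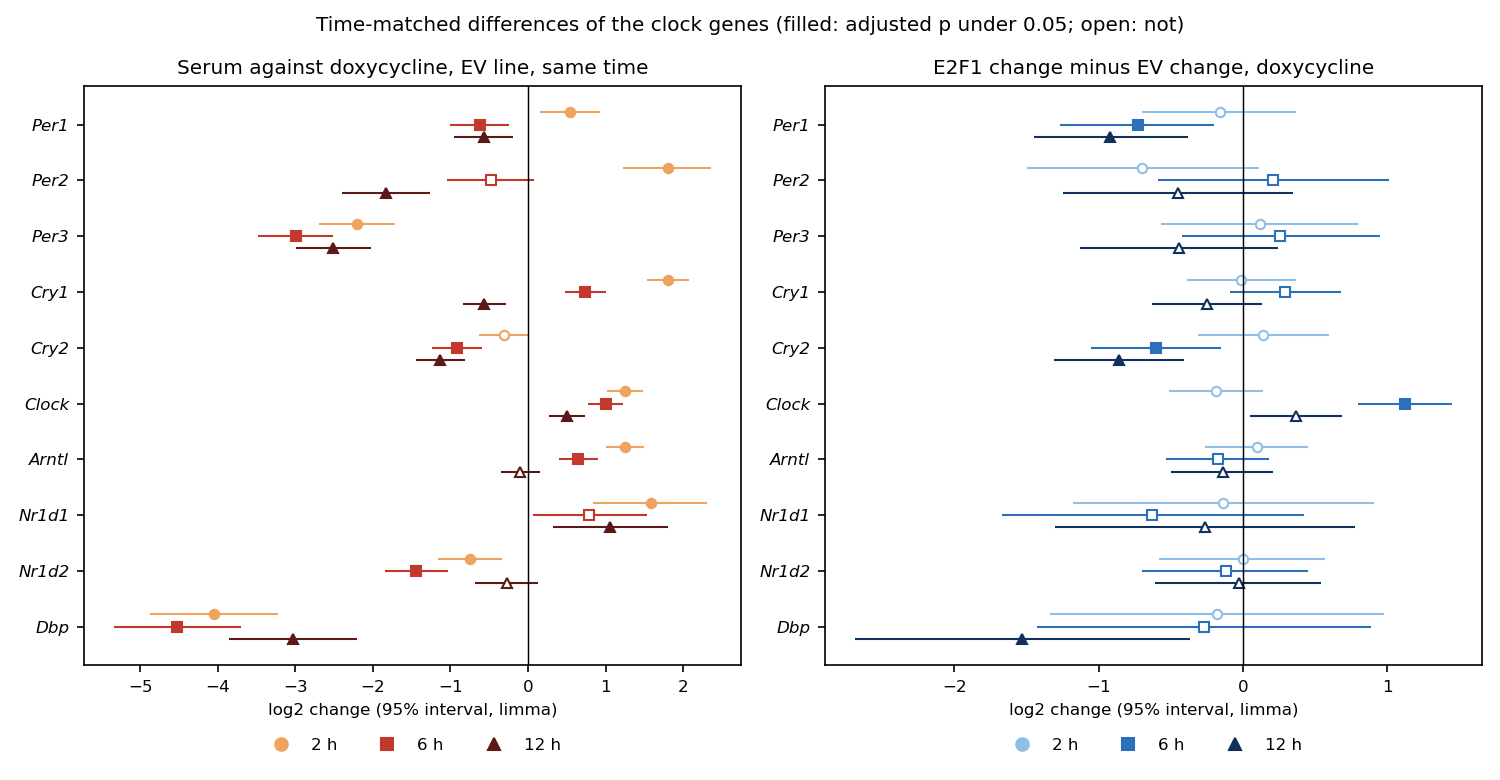
Log2 differences with 95% intervals from limma at matched times, for serum minus doxycycline in the EV line (left) and for the change of the E2F1 line minus the change of the EV line (right); filled symbols passed an adjusted p of 0.05. On the left Per3 and Dbp lie below -2 at all times, and on the right Clock at 6 h (1.12) is the one member called above 0.

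Within the serum course the 2 h state gave way by 6 h. Between 2 and 6 h 9 of 10 members were lower at the threshold, where 24.3% of all genes were lower and 48.5% were called in either direction. Per2 fell by 2.92 (SE 0.27, adjusted p = 1.03e-07), Per1 by 1.16 (4.11e-05), Cry1 by 1.08 (2.06e-06) and Nr1d1 by 1.13 (0.0126). Dbp was the member not called (-0.63, 95% interval -1.45 to 0.19, adjusted p = 0.195; 0.0264 without serum 6 h replicate 2). The Per3 step (-0.78) was lost in a fit to the compared groups (adjusted p = 0.103) and without replicate 2 at 2 h (0.21) or 6 h (0.111), that of Arntl (-0.40) in a fit to the compared groups (0.057), under equal totals (0.0931) and without replicate 1 at 2 h (0.0565) or 6 h (0.214), and that of Clock (-0.43) under equal totals (0.0501). The Nr1d1 step was lost without replicate 2 at 2 h (0.0593) or 6 h (0.19), and that of Nr1d2 (-0.79) without replicate 2 at 6 h (0.0524). Against 1.2-fold the steps of Per3, Cry2, Clock, Arntl and Nr1d1 did not pass.

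Between 6 and 12 h of serum the genes parted. Of the 10 members 6 were called, where 39.9% of all genes were. Cry1 fell further by 1.45 (adjusted p = 1.09e-07), Per2 by 1.60 (1.25e-04), Arntl by 0.74 (8.05e-05) and Clock by 0.41 (0.00562; 0.0504 under equal totals, and not passing against 1.2-fold). Nr1d2 and Dbp turned upward, Nr1d2 by 1.17 ± 0.19 (1.04e-04) and Dbp by 1.78 ± 0.39 (0.00135), the latter from 7 and 17 to 29 and 56. The Dbp step had an adjusted p of 0.0937 in a fit to the compared groups (range over all alternatives 1.31e-04 to 0.0937). At 12 h both genes still lay under their level at EV 0 h, though Nr1d2 was not called against EV doxycycline at 12 h (-0.27).

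Under doxycycline alone in the EV line, none of the 10 members passed limma's test at 2 h (7.35% of all genes), 6 h (0.134%) or 12 h (4.17%). At an unadjusted p under 0.05 there were 2, 1 and 2. The share of all genes at that unadjusted threshold was not counted in any comparison. Over the EV doxycycline course Clock measured 2031 and 2267, 1858 and 1945, and 2080 and 1969. Per3 went from 1319 and 1036 at 0 h to 836 and 787 at 12 h, a log2 difference of -0.53 with a 95% interval from -1.01 to -0.04 that did not pass adjustment (adjusted p = 0.248). Arntl measured 999 and 1009 at 12 h against 770 and 849 at 0 h (0.31, 95% interval 0.06 to 0.56, adjusted p = 0.173).

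In the E2F1 line Clock rose and Per1 and Cry2 fell from 6 h on, while no clock gene passed the test at 2 h. At 2 h of doxycycline 0 of 10 members passed limma's test, also at an unadjusted p under 0.05, where 1.86% of all genes passed the adjusted threshold. The median absolute log2 change was 0.22 for the members against 0.12 for all genes. For Cry1 the log2 change was 0.27 with a 95% interval from -0.00 to 0.54 (adjusted p = 0.345). At 6 h 5 of 10 passed (51.7% of all genes), 2 higher (28.8%) and 3 lower (22.9%). At 12 h 6 of 10 passed (61.5%), 1 higher (31.8%) and 5 lower (29.7%). The shares called in either direction are near those of all genes. The median absolute log2 change of the members was 0.54 at 6 h against 0.35 for all genes, and 0.78 at 12 h against 0.43. After subtraction of the change in the EV line, the order was the other way, 0.28 for the members against 0.36 at 6 h and 0.41 against 0.47 at 12 h.

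Clock was the largest rise of the E2F1 line among the members. It measured 2146 and 1984 at 0 h, 2117 and 2275 at 2 h, 5088 and 4564 at 6 h, and 3547 and 2616 at 12 h. The 6 and 12 h libraries lay above all earlier ones, and the 6 h pair overlapped the serum peak at 2 h. The log2 change was 1.22 ± 0.11 (adjusted p = 3.77e-08) at 6 h and 0.56 ± 0.11 (2.12e-04) at 12 h, with a fall of 0.66 (1.96e-04) between the 2 times. Its partner Arntl measured 781 and 680, 784 and 884, 773 and 827, and 822 and 817, and its change at 6 h was 0.13 with a 95% interval from -0.12 to 0.38 (0.362).

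Of the repressor genes of the E2F1 line, Per1 and Cry2 fell at both later times. Per1 measured 1767 and 1924 at 0 h, 1794 and 1604 at 2 h, 1191 and 1101 at 6 h, and 996 and 867 at 12 h. Its 6 and 12 h libraries were all below the earlier ones, with a log2 change of -0.69 ± 0.18 (adjusted p = 0.00414) and -0.99 ± 0.18 (1.25e-04). Cry2 measured 903 and 868, 1111 and 929, 586 and 641, and 463 and 552 in the same order. It too fell below all earlier libraries, by -0.53 ± 0.15 (0.00731) at 6 h and -0.81 ± 0.15 (1.63e-04) at 12 h, the 6 h call being lost without E2F1 6 h replicate 1 (0.0607; range over all alternatives 0.00191 to 0.149). Cry1 measured 831 and 713, 974 and 880, 1201 and 1068, and 679 and 722. It was raised at 6 h (0.56 ± 0.13, 0.00156) and its 12 h difference was not called (-0.14, 95% interval -0.41 to 0.13, 0.369).

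Per2, whose resting level was higher in the E2F1 line (421 and 440) than in the EV line (200 and 237), measured 308 and 417 at 2 h, 455 and 411 at 6 h, and 297 and 175 at 12 h. The resting difference between the lines was 0.98 ± 0.27 (adjusted p = 0.0213), and was lost without either E2F1 0 h library (0.0934 and 0.1) or EV 0 h replicate 1 (0.125), and against 1.2-fold (0.197), with a range over all alternatives from 0.0128 to 0.197. The Per2 fall at 12 h was -0.91 ± 0.27 (0.007), and was lost without E2F1 12 h replicate 2 (0.142; range over all alternatives 0.00177 to 0.142). Per3 measured 1119 and 1441 at 0 h, 1075 and 951 at 2 h, 1109 and 1144 at 6 h, and 687 and 611 at 12 h. The 12 h pair of Per3 lay below all earlier libraries of its line, at -0.97 ± 0.23 (0.00136).

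Nr1d1 of the E2F1 line measured 402 and 369 at 0 h, 295 and 358 at 2 h, 241 and 136 at 6 h, and 315 and 167 at 12 h. The 6 h difference of -1.08 ± 0.35 (adjusted p = 0.0154) was lost without E2F1 0 h replicate 1 (0.0726) or E2F1 6 h replicate 2 (0.19), with a range over all alternatives from 0.00303 to 0.19, and the 12 h difference was -0.74 (95% interval -1.48 to -0.01, 0.0739; 0.0134 in a fit to the compared groups and 0.0186 without E2F1 12 h replicate 1). Nr1d2 measured 1298 and 1179, 1147 and 1128, 1060 and 901, and 1171 and 929, with a 12 h difference of -0.25 (95% interval -0.65 to 0.16, 0.279). Dbp measured 272 and 472, 260 and 254, 206 and 227, and 88 and 139. Its 12 h pair was below all earlier libraries of the line, at -1.69 ± 0.39 (0.0011). Against 1.2-fold the 6 h calls of Per1, Cry1, Cry2 and Nr1d1 did not pass, and Clock alone remained at that time.

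From 6 to 12 h in the E2F1 line 4 of 10 members were called, all lower, where 20.2% of all genes were lower and 35.3% were called. These were Cry1 (-0.69 ± 0.13, adjusted p = 5.37e-04), Clock (-0.66), Per2 (-0.92 ± 0.27, 0.0136) and Per3 (-0.80 ± 0.23, 0.0124). The Per2 step was lost without E2F1 6 h replicate 1 (0.081) or 12 h replicate 2 (0.204), that of Per3 without either 6 h replicate (0.0502 and 0.0616) or 12 h replicate 2 (0.0829), and both against 1.2-fold. Dbp was not called (-0.96, 95% interval -1.78 to -0.14, adjusted p = 0.0635), but passed with a pseudocount of 8 (0.0374) and in a fit to the compared groups (0.0156).

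The change of the E2F1 line minus the change of the EV line at the same hour of doxycycline set the response of one line against that of the other; the construct and other differences between the lines cannot be told apart in it. It passed for 0 of 10 members at 2 h (0.143% of all genes; also 0 at an unadjusted p under 0.05), for 3 of 10 at 6 h (34.5%) and for 3 of 10 at 12 h (50.5%). At 6 h these were Clock (1.12 ± 0.15, adjusted p = 1.72e-05), Per1 (-0.73 ± 0.26, 0.033) and Cry2 (-0.60 ± 0.21, 0.0367). The Clock difference kept its call under every alternative run, with adjusted p from 1.61e-05 to 2.58e-04. Those of Per1 and Cry2 at 6 h were each lost in the test against 1.2-fold and when 1 of 5 libraries was left out: for Per1, E2F1 6 h replicate 1 (0.0549) or 2 (0.0879), E2F1 0 h replicate 2 (0.0989), EV 6 h replicate 1 (0.136) or EV 0 h replicate 2 (0.11). For Cry2 these were E2F1 0 h replicate 1 (0.0909) or 2 (0.0682), E2F1 6 h replicate 1 (0.116), EV 6 h replicate 1 (0.135) or EV 0 h replicate 2 (0.132).

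At 12 h the same difference was called for Per1 (-0.92 ± 0.26, adjusted p = 0.00616), Cry2 (-0.86 ± 0.21, 0.00262) and Dbp (-1.53 ± 0.55, 0.0275). Per1 and Cry2 kept their 12 h calls under every alternative run, up to adjusted p of 0.0339 and 0.0221. That of Dbp was lost without E2F1 12 h replicate 1 (0.12), E2F1 0 h replicate 2 (0.141), EV 0 h replicate 2 (0.0678) or EV 12 h replicate 2 (0.0944), and against 1.2-fold (0.0569), with a range over all alternatives from 0.00571 to 0.141. For Clock it was 0.37, with a 95% interval from 0.05 to 0.69 (0.0518; 0.0484 with a mean of at least 500 and 0.00131 without E2F1 12 h replicate 2), and for Per3 it was -0.44 (95% interval -1.13 to 0.24, 0.271).

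The change of the E2F1 line was also set against the change in serum at the same hour; line and stimulus cannot be told apart in this comparison. It differed for 9 of 10 members at 2 h (56.7% of all genes), 6 of 10 at 6 h (57.9%) and 4 of 10 at 12 h (48.8%). At 6 h Dbp (4.25 ± 0.55, adjusted p = 3.43e-06), Per3 (3.26 ± 0.33, 1.51e-07) and Nr1d2 (1.31 ± 0.27, 4.80e-04) were higher relative to rest in the E2F1 line, and Arntl (-0.82 ± 0.17, 4.57e-04), Nr1d1 (-1.42 ± 0.50, 0.0204) and Cry1 (-0.44 ± 0.18, 0.0455) lower. The Nr1d1 difference was lost without E2F1 0 h replicate 1 (0.0559), E2F1 6 h replicate 2 (0.116), EV 0 h replicate 2 (0.0663) or serum 6 h replicate 1 (0.123), and that of Cry1 under equal totals (0.125), in a fit to the compared groups (0.0586), without the 2 h doxycycline libraries (0.0574) and in the test against 1.2-fold (0.296). Without a single library, the Cry1 value ran from 0.0509 without EV 0 h replicate 1 to 0.179 without E2F1 0 h replicate 1 among those that ended the call, the others being E2F1 6 h replicate 2 (0.154), EV 0 h replicate 2 (0.122) and serum 6 h replicate 1 (0.0509) or 2 (0.118). For Clock at 6 h both changes were rises, 1.22 in the E2F1 line and 1.10 in serum, and for Cry2 and Per1 both were falls. The differences of Per1 (-0.12, 95% interval -0.65 to 0.42), Cry2 (0.32, -0.13 to 0.77) and Per2 (0.69, -0.11 to 1.5) were not called.

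At 12 h Per3 (2.06 ± 0.33, adjusted p = 4.95e-05) and Per2 (1.38 ± 0.38, 0.00617) remained higher relative to rest in the E2F1 line than in serum, as did Dbp (1.5 ± 0.55, 0.0311), and Nr1d1 was lower (-1.32 ± 0.50, 0.0348). Quantile normalization ended the call of Per2 (0.0894) and of Dbp (0.125). The Dbp call was also lost without E2F1 0 h replicate 1 (0.152), E2F1 12 h replicate 2 (0.13), EV 0 h replicate 1 (0.0729) or 2 (0.055) or serum 12 h replicate 1 (0.157), and that of Nr1d1 without E2F1 0 h replicate 1 (0.0878) or 2 (0.059), E2F1 12 h replicate 2 (0.188), EV 0 h replicate 2 (0.102) or serum 12 h replicate 1 (0.182), and when the 2 h doxycycline libraries were left out of the fit (0.0504). Both were lost against 1.2-fold.

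Ordered by mean level over the 11 groups, the members covered unequal ranges. The highest group mean exceeded the lowest 31.4 times for Dbp, 22.8 times for Per2 and 11.7 times for Per3, but 2.29 times for Cry2, 2.73 times for Per1, 2.82 times for Arntl and 2.89 times for Clock. The ratio was 5.73 for Cry1, 5.17 for Nr1d1 and 3.13 for Nr1d2. For Nr1d1 the serum 2 h pair (mean 975) stood clear, and every other neighbouring pair of groups overlapped, from 549 down to 188.5. For Clock the serum 2 h (5117.5) and E2F1 6 h (4826) groups overlapped at the top, serum 6 h (3807.5) stood clear below them, E2F1 12 h (3081.5) and serum 12 h (2864) overlapped, and the 0 and 2 h groups of the E2F1 line and all EV doxycycline groups lay from 2196 to 1773.5. For Per1 the serum 2 h group (2542) was clear of a chain of overlapping resting and doxycycline groups (1845.5 to 1598.5), below which serum 6 h, E2F1 6 h, serum 12 h and E2F1 12 h (1151 to 931.5) formed a second chain. For Dbp the 5 highest groups, from EV 0 h (376.5) to EV doxycycline 6 h (273.5), overlapped in turn, then E2F1 2 h (257), 6 h (216.5) and 12 h (113.5) and serum 12 h (42.5) each stood clear of the next, with serum 2 h (18) and 6 h (12) overlapping at the bottom.

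For Per2 the serum 2 h group (1025) was clear of E2F1 6 h (433) and E2F1 0 h (430.5), which overlapped, and serum 12 h (45) was clear of serum 6 h (136.5) at the bottom. For Per3 the 3 serum groups (192 to 109) lay clear below E2F1 12 h (649), which itself was clear of the EV doxycycline groups above it. For Cry1 serum 2 h (3218), serum 6 h (1523) and E2F1 6 h (1134.5) each stood clear of the next, a chain of 6 groups ran from 927 to 762, and E2F1 12 h (700.5) and serum 12 h (561.5) were clear below. For Cry2 a chain of 6 groups at rest or early in doxycycline in the E2F1 line and at any time in the EV line (1020 to 885.5) was clear of serum 2 h (773.5) and E2F1 6 h (613.5), and serum 6 h, E2F1 12 h and serum 12 h (513.5 to 445.5) overlapped. For Arntl serum 2 h (2059) and serum 6 h (1579) were each clear of the next, EV doxycycline 12 and 6 h (1004 and 998.5) overlapped above serum 12 h (935), and the other 6 groups overlapped from 866 to 730.5. For Nr1d2 9 groups overlapped in turn from EV 0 h (1350.5) to serum 12 h (972.5), with serum 2 h (736) and serum 6 h (431.5) clear below.

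The genes whose pattern was most like that of each member were sought over the 11 group means, among 3905 genes with an SD of at least 0.5, as Pearson r; the groups share lines and stimuli and many genes follow serum, so r is a description only. Dbp was nearest to Mov10 (0.995), Wdr19 (0.991) and Brdt (0.984), and Clock to Slk (0.990), Tatdn2 (0.984) and Luzp1 (0.979). Per3 was nearest to Cdon (0.976), Prokr1 and Tcf7l1, Cry2 to Phf1 (0.977), Eno2 and Cdc42ep5, and Arntl to Acvr1 (0.971), Trabd2b and Klhl26. Per1 was nearest to Alpk1 (0.962), Daam1 and Ddit4, Cry1 to Herpud1 (0.960), Ern1 and Nfatc1, Nr1d2 to Sv2a (0.956), Phka2 and Gm3716, and Nr1d1 to Pgm2 (0.953), Noc3l and Mical2. Per2, with its rise and later fall, had the lowest leading value, 0.897 with H19, followed by Smarca1 and Mmp9.

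The counts of the lists that follow stand beside these shares of all genes. In serum 37.5%, 36.5% and 36% rose and 33.5%, 31% and 29.7% fell at 2, 6 and 12 h. In doxycycline 28.8% and 31.8% rose and 22.9% and 29.7% fell at 6 and 12 h in the E2F1 line. In the line difference, the doxycycline change in E2F1 cells less the one in EV cells, 34.5% were called at 6 h and 50.5% at 12 h. Under doxycycline in the EV line 7.35%, 0.134% and 4.17% were called in either direction at 2, 6 and 12 h. At 2 h 1.86% were called in the E2F1 line and 0.143% in the line difference. Other transcription factors of the clock were in the table for 5 of 10 listed genes. At 2, 6 and 12 h of serum 2, 2 and 1 of them rose and 3, 3 and 3 fell; in the E2F1 line 1 rose and 2 fell at 6 h, and 0 rose and 3 fell at 12 h. In the EV line under doxycycline 1 of the 5 was called higher at 2 h, where 7.35% of all genes were called, and none was called at 6 or 12 h. In the line difference 0 were higher at either time, with 1 lower at 6 h and 2 at 12 h. Tef and Hlf, which like Dbp encode PAR bZIP factors, fell in serum, Tef from 2411 and 2097 at rest to 627 and 650 at 6 h (log2 -1.81 ± 0.13) and Hlf from 3302 and 1941 to 143 and 25 (-5.37 ± 0.54). In the E2F1 line Tef also fell, by -0.72 at 6 h and -1.16 at 12 h, whereas for Hlf the 12 h difference was -0.83 ± 0.54 (adjusted p = 0.194). Rora, which activates Arntl through the element that REV-ERB proteins share, fell to 126 and 84 at 6 h of serum from 1644 and 1395 (-3.87 ± 0.18). Bhlhe40 (DEC1), a repressor that binds E-boxes, rose at 2 h of serum from 413 and 499 to 3380 and 3543 (2.93 ± 0.25). At 2 h of doxycycline in the EV line, without added serum, Bhlhe40 measured 725 and 1005. In the E2F1 line it was lower at 12 h (-1.13 ± 0.25), with a line difference of -0.79 ± 0.35 (adjusted p = 0.0706). Nfil3, a D-box repressor chosen here after its values were seen as the other gene that rose, changed by 1.10, 0.87 and 0.79 at 2, 6 and 12 h of serum and by 0.70 at 6 h in the E2F1 line. Under doxycycline in the EV line Nfil3 went from 969 and 1054 to 1308 and 1368 at 6 h (0.40 ± 0.11, adjusted p = 0.458), and the line difference was 0.30 ± 0.16 (0.15).

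**Figure D4:**
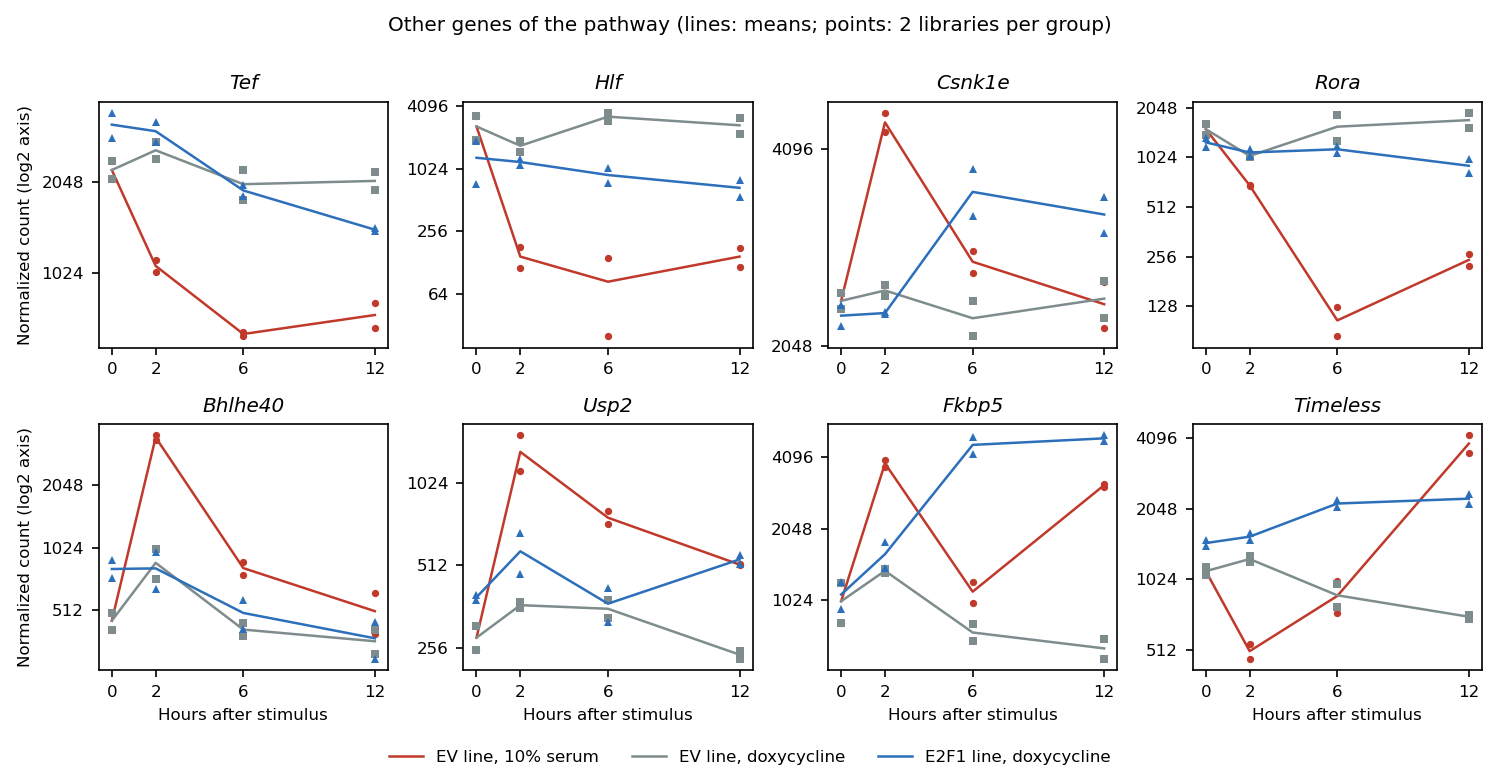
Normalized count (log2 axis) of 8 other genes of the clock pathway or of the stimuli that set it, against hours after the stimulus, with 2 points per group and lines through the group means. Tef, Hlf and Rora fall in serum, Bhlhe40 and Usp2 peak at 2 h of serum, Csnk1e and Fkbp5 rise in the E2F1 line by 6 h, and Timeless is lowest at 2 h and highest at 12 h of serum.

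Among 14 measured kinases, ubiquitin ligase parts and other modifiers of clock proteins, 8 rose and 3 fell at 2 h of serum, 8 and 1 at 6 h and 8 and 2 at 12 h, and in the E2F1 line 7 and 0 at 6 h and 8 and 1 at 12 h. The 11 called at 2 h of serum are near the share of all genes called there (70.9%). In the EV line under doxycycline 0 passed at 6 or 12 h, and the line difference was higher for 7 and 7 and lower for 0 and 2. Csnk1e, a casein kinase that phosphorylates PER proteins, rose by 0.90 ± 0.10 at 2 h of serum and by 0.62 ± 0.10 at 6 h in the E2F1 line. Csnk1d, a casein kinase gene of the same list, did not share this rise. It measured 8270 and 8069 at EV 0 h and 7938 and 8152 at 2 h of serum. In the E2F1 line Csnk1d measured 7424 and 7476 at 0 h, 6923 and 6704 at 6 h, and 5828 and 6011 at 12 h. Usp2, a deubiquitinase and itself a rhythmic gene, rose by 2.23 ± 0.18 at 2 h of serum. Of 11 measured clock-controlled output genes 6, 6 and 8 rose and 1, 1 and 2 fell along serum, and 5 and 6 rose and 4 and 4 fell at 6 and 12 h in the E2F1 line, with Slc20a1 at 4.74 ± 0.16 at 2 h of serum. In the EV line under doxycycline 3 output genes rose at 2 h, none was called at 6 h and 1 fell at 12 h. The line difference was higher for 5 and 6 and lower for 3 and 3 at 6 and 12 h. Timeless, Tipin and Clspn, better known for the replication fork, rose at 12 h of serum and at 6 and 12 h in the E2F1 line (3 of 3 each), while under doxycycline in the EV line all 3 fell at 12 h. Timeless fell by 1.14 at 2 h of serum.

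Genes of the signals that reach the Per promoters were counted in the same way. Each list holds the regulator as well as its targets: Creb1 and its coactivators Crtc1, Crtc2 and Crtc3 in the CREB list, Srf with its coactivators Mrtfa and Mrtfb in the SRF list, and the receptor Nr3c1 in the glucocorticoid list. Of 13 measured CREB genes 9, 3 and 2 rose and 1, 2 and 6 fell along serum, and 6 and 4 rose and 0 and 4 fell at 6 and 12 h in the E2F1 line (line difference 6 and 1 higher, 1 and 4 lower; EV line 0 and 1 higher, none lower). Nr4a1 rose by 4.74 ± 0.32 at 2 h of serum. Of 11 measured SRF and cytoskeletal genes 9, 8 and 4 rose and 1, 2 and 1 fell along serum. In the E2F1 line 3 and 0 rose and 4 and 8 fell. Vcl rose by 2.78 ± 0.10 at 2 h of serum. Under doxycycline in the EV line 5 of these 11 fell at 12 h (list median -0.60, against -0.63 in the E2F1 line) and none was called at 6 h. The line difference was higher for 2 and 2 and lower for 1 and 5. Of 10 measured glucocorticoid genes 5, 4 and 4 rose and 4, 2 and 3 fell along serum, and 3 and 2 rose and 3 and 5 fell in the E2F1 line (line difference 2 and 2 higher, 3 and 3 lower; EV line none higher, 0 and 1 lower). Fkbp5 rose by 1.95 ± 0.17 at 2 h of serum and by 2.10 ± 0.17 at 6 h in the E2F1 line. At 2 h of doxycycline in the EV line 1 CREB gene rose, 2 SRF genes rose and 3 fell, and 2 glucocorticoid genes rose and 1 fell. The 6 E2F targets used as a check of the induction all rose at 6 and 12 h in the E2F1 line and at 12 h of serum, with 3 at 2 and 6 h of serum. Ccne1 (cyclin E1) rose by 4.05 ± 0.22 at 6 h in the E2F1 line. At 2 h in that line 2 of 6 were already called higher, Ccne1 by 1.33 ± 0.22 (limma adjusted p = 0.00368), while the line difference at 2 h was called for 0. Under doxycycline in the EV line 5 of 6 fell at 12 h. The line difference was higher for 6 of 6 at 6 h and at 12 h.

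The authors' deposited table for serum at 2 h lists 4 clock genes, Cry1 at a log2 fold change of 2.09, Per2 at 2.25, Per3 at -2.63 and Dbp at -4.36. The authors' deposited table for 6 h lists Per3 at -3.42 and Dbp at -5.01. The authors' deposited table for 12 h lists Per3 at -3.02, Dbp at -3.19 and Per2 at -2.28. Genes that changed by less than about 2 on the log2 scale are left out of these tables, and the authors' deposited tables for doxycycline in either line list none of the 10.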

How the data were processed

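Per the labels' protocols, paired-end reads of 150 bp were taken from each of the 22 libraries. FastQC, Trimmomatic, HISAT2, featureCounts, DESeq2 and the build mm10 (GRCm38) are named in the submitters' processing notes, with no versions or order; the scaling and the use of strand are not given in the sources used here. The authors deposited normalized counts rounded to whole numbers, treated here as a score and not as raw counts. Further tables give the log2 fold change and adjusted p-value of each time against 0 h as the authors deposited them. Of the gene identifiers, 10977 of 11208 matched GENCODE M21 on GRCm38 with their version, and gene positions are from there.

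The scale of analysis was log2(value + 1); limma 3.58.1 (R 4.3.3) was fitted to all 22 libraries, each of the 11 groups having its own mean, moderation with a mean-variance trend and 11 residual degrees of freedom. Genes needed a value of at least 10 in 2 libraries, which removed 0. Benjamini-Hochberg adjustment ran over all 11208 genes in each comparison, and an adjusted p-value under 0.05 was a call. On simulated data for serum 6 h against EV 0 h over 11208 genes, 187 of 200 genes changed 2-fold were recovered and 11 unchanged ones called. The simulation gave every gene the same dispersion and changed only those 200, whereas 67.5% of genes were called in the real comparison. It therefore checks that the code runs as intended and does not give the error rate of the real calls. The members and lists were chosen with earlier results of these data known, and the comparison of 12 h with 6 h in the E2F1 line was added after the data were seen. Members were all named; of each other list (other clock transcription factors, modifiers, output genes, Timeless and partners, CREB, SRF and glucocorticoid genes, E2F targets) all measured genes were counted and at most 4 could be named, those of largest called change with a higher-group mean of at least 50 and libraries that did not overlap; for each member the 3 most alike genes were named. Nfil3 and Csnk1d, each beyond the 4 of its list, were described after their values were seen. Alternatives were a pseudocount of 8, no filter, a mean of at least 500, quantile normalization, equal totals, a fit to only the groups compared, the replicate number as a block, no 2 h doxycycline libraries, at least a 1.2-fold change, and each library left out. Tables and figures were made in Python 3.11.15 (pandas 2.3.3, numpy 2.4.6, matplotlib 3.10.9).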

Additional observations from a re-analysis of the deposited data

Results flagged for a closer look

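The change under doxycycline differed between the E2F1 and EV lines for 6 values of the clock genes, tested as the difference itself in limma. At 6 h the difference on the log2 scale was 1.12 for Clock, which rose in the E2F1 line, and -0.73 for Per1 and -0.60 for Cry2, which fell there. At 12 h it was -0.92 for Per1, -0.86 for Cry2 and -1.53 for Dbp. In the EV line none of these genes passed the test against 0 h at either time. The log2 difference of E2f1 itself was 1.32 at 6 h and 0.88 at 12 h.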

How the results depend on the processing

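Of 107 called values of the clock genes, 71 kept their side of the threshold under every alternative and none reversed in sign under any; of 1441 values under alternatives 1310 kept the call and 131 lost it. A pseudocount of 8, no filter and a mean of at least 500 (among the members it kept) ended 0 calls, the 2 h doxycycline libraries left out 2, quantile normalization 6, the groups compared alone 6, equal totals 7 and the test against 1.2-fold 30; leaving out a library ended 29 at least once. In the test against 1.2-fold the count of called members was 5 for serum 12 h against EV 0 h, 4 for serum 6 h against 2 h, 1 for the E2F1 line at 6 h, 2 for its 12 h against 6 h, 1 for the difference between the lines at 6 h, 2 for the E2F1 change minus the serum change at 12 h and 0 for the lines at 0 h. With a mean of at least 500, which removed Per2, Nr1d1 and Dbp from the test, it was 5 for serum against EV doxycycline at 12 h, 1 for the E2F1 change minus the serum change at 12 h and 0 for the lines at 0 h. Quantile normalization gave 2 for the E2F1 change minus the serum change at 12 h. With 1 library left out at a time, the count ran from 2 to 4 for the E2F1 line at 12 h against 6 h, from 1 to 3 for the difference between the lines at 6 h, from 2 to 5 for the E2F1 change minus the serum change at 12 h and from 0 to 1 for the lines at 0 h. In these fits the lone library of a group is assumed to vary like the others. Shares of all genes called in the 1.2-fold test, the mean filter, quantile normalization and these fits are not given beside the counts. A lower count there is therefore not a result about the clock genes. Equal totals moved the median of all genes by -0.37, -0.21 and -0.08 at 2, 6 and 12 h of serum and by -0.12 and -0.06 at 6 and 12 h in the E2F1 line, and at 2 h of serum split all calls into 2611 higher and 5907 lower, against 4200 and 3752.

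Replicate numbers were not taken to pair the samples, since not every pair of groups had a correlation over 0.1: over 55 pairs of groups the correlation of deviations of same-numbered libraries ran from -0.277 to 0.455 with a median of 0.031, and was over 0.1 in 18 and under -0.1 in 6. With the replicate number as a block 0 calls of the members were lost and 5 were gained: Nr1d1 in serum against EV doxycycline at 6 h (adjusted p = 0.0161), Nr1d1 at 12 h (0.0243) and Dbp at 6 h (0.0493) in the E2F1 line, Dbp between its 6 and 12 h (0.0184), and Clock in the difference between the lines at 12 h (0.0481). Of 113 values not called, 17 passed under at least 1 alternative. With 2 libraries a group the spread between them limits the small changes, and Dbp in serum rests on 7 to 56 normalized counts.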

Other observations

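Replicates of 4 clock genes were ordered alike in all 6 groups at 6 and 12 h. Replicate 1 was the higher library in 6 of 6 groups for Nr1d1 (median log2 difference 0.84), Per2 (0.50) and Nr1d2 (0.38), and replicate 2 in 6 of 6 for Dbp (median -0.53 for replicate 1 minus replicate 2). Over all 11208 genes, 4.14% had replicate 1 higher in all 6 groups and 3.35% had replicate 2 higher. Leaving out 1 library at 6 or 12 h makes replicate numbers uneven between the groups compared. The left-out results of these 4 genes carry that imbalance. No batch or collection time is given in the labels used here, and the source of the replicate order was not tested.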
